A study of Ovis aries with 91 samples.

Results

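RNA of whole appendage tissue was set against RNA of isolated cardiomyocytes from the same appendage of the same sheep (Ovis aries), in sheep whose atria were paced into atrial fibrillation. Every paced sheep with a column in both deposited expression tables entered, with its left and its right appendage. This gave 8 pairs from 4 sheep, made of 32 of the 91 samples of the series, since the authors merged 2 technical replicates into each of the 16 columns. In each pair the cardiomyocyte value of a gene was subtracted from the whole tissue value on the log2 scale, and the median difference of all genes in that pair was taken away.

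The series, on the progression of atrial fibrillation in sheep atria, placed a pacing device in the right atrium. It labelled each sheep as sham, control, transition or chronic. The paced sheep used here were D16 and D19, both labelled chronic, and D24 and D27, both labelled transition. Those set against them were S3 and S4, labelled sham, and C1, labelled control and called sham in its column name, which gave 6 pairs from 3 sheep. The sources used here do not give breed, sex, age, pacing time or the way the cardiomyocytes were isolated.

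Atrial fibrillation is a fast, irregular rhythm that replaces the coordinated beat of the atria. Cardiomyocytes are the contracting muscle cells of the heart and supply much of the RNA of atrial tissue, while fibroblasts, endothelial cells, smooth muscle cells, immune cells, fat cells and nerve fibres supply the rest. A preparation of isolated cardiomyocytes is meant to leave those other cells behind, so a transcript made mainly outside muscle cells would be lower in it than in the tissue. In such bulk samples, fewer cells of a type and less RNA per cell cannot be told apart.

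The gene identifiers are Ensembl sheep IDs that the files do not pair with names, and 0 of 13782 matched a symbol in the RefSeq gene table used here. For that reason no gene is given a name or a role, the purity of the cardiomyocyte columns could not be checked against markers, and 2 genes per direction are described for each comparison. The authors listed 13187 genes for whole tissue and 13262 for cardiomyocytes, with 12667 in common. Levels are in log2 CPM, the log2 of a gene's reads scaled to the size of its library, and the 12138 genes with a mean of at least 0 over the 16 columns were tested. Reads per column ranged over 6241967 to 22382458 for paced whole tissue and 5305524 to 10738102 for paced cardiomyocytes, against 7089908 to 12715615 in control tissue and 7325726 to 12434418 in control cardiomyocytes. The authors normalised the tables separately, and the technical replicate labels are L5 and L6 for every tissue sample used here and L7 and L8 for every cardiomyocyte sample, so the kind of sample cannot be told apart from these labels. A difference between tables is therefore a difference relative to the median gene.

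Whole tissue and isolated cardiomyocytes differed at many genes, and more genes were far lower than far higher in whole tissue. Relative to the median gene, 3129 genes were higher in whole tissue (25.8% of those tested) and 3270 were lower (26.9%), by a limma moderated test over the 4 sheep with adjusted p under 0.05. Most of these differences were small: the called genes had a median of 0.59 log2 units where higher and -0.60 where lower. Tested against a difference of 1 log2 unit, 39 genes were higher (0.321%) and 194 lower (1.6%). The split of calls depended on the centring. On the deposited values without it, 6515 genes were higher and 1484 lower, and the median difference of all genes was 0.389, against 0.032 with centring.

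By size alone, 553 genes were at least 2-fold higher in whole tissue on average and 657 at least 2-fold lower. At 4-fold or more the numbers were 62 higher and 188 lower, and at 8-fold or more 6 higher and 72 lower. At 32-fold or more there were 2 genes higher and 15 lower. The 2 are named although their mean level lies below the median of genes tested, a choice made after their values were seen. The median of their mean levels was 2.51 log2 CPM, and their reads per column are not given here. ENSOARG00000008210 was higher in whole tissue by 5.28 ± 0.53 log2 units (SE, n = 4 sheep), with pairs at 2.44 to 9.47. ENSOARG00000019787 was higher by 5.15 ± 0.24 (SE, n = 4 sheep), with pairs at -0.935 to 9.37, so its pairs were much further apart than its sheep means. The 15 genes that were at least 32-fold lower in whole tissue had the same sign in all 8 paced pairs, which chose them. They were also lower in all 6 control pairs, which took no part in the choice. Of all genes tested, 39.0% had the same sign in all 8 paced pairs and 39.6% in all 6 control pairs, counting either sign. Of the 5798 genes that were lower on average in paced whole tissue, 2257 were lower in all 6 control pairs. The mean level of the 15 genes lay between -1.84 and 5.84 log2 CPM in whole tissue and between 4.61 and 12.22 in cardiomyocytes. Together they took 0.0095% to 0.0235% of the listed reads of a paced tissue column. In a paced cardiomyocyte column they took 0.887% to 1.68%, a gap that the choice of these genes brings with it.

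**Figure D1:**
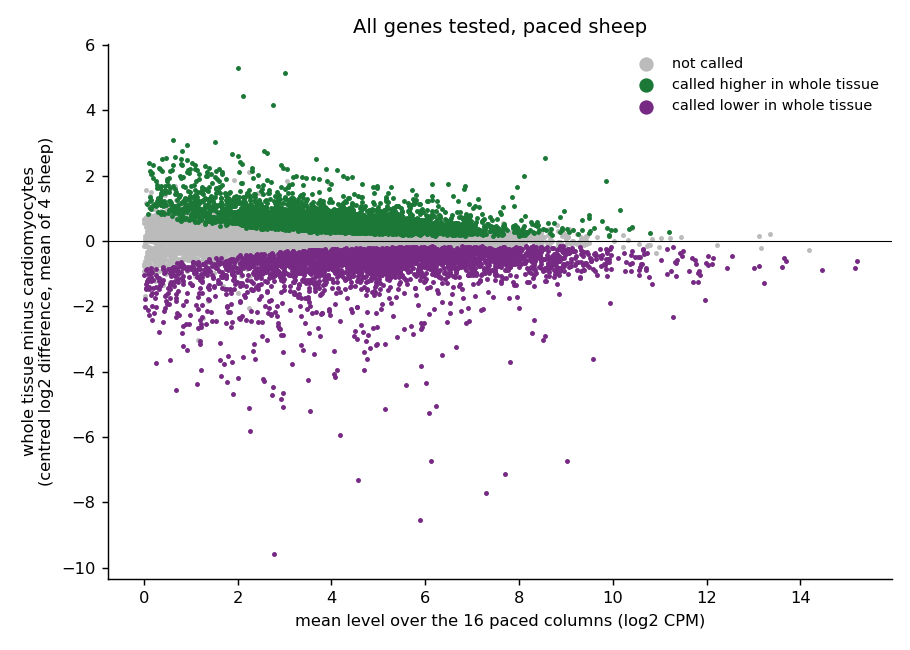
Centred log2 difference of whole tissue minus cardiomyocytes (vertical axis, mean of 4 paced sheep) against mean level over 16 columns (horizontal axis, log2 CPM); each point is 1 of 12138 genes, green where called higher in whole tissue, purple where called lower, grey where not called. The points reach further down than up, with 72 genes at least 8-fold lower and 6 at least 8-fold higher.

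The direction of the calls moved with the level of the gene. Of the 3035 genes in the highest quartile of levels (5.49 to 15.20 log2 CPM), 43.4% were called lower in whole tissue and 22.1% higher, with a median difference of -0.136. Of the 3035 genes in the lowest quartile (0.00 to 2.53 log2 CPM), 14.6% were called lower and 22.8% higher, with a median difference of 0.163. These medians are small beside the offset that centring removed, which was 0.338 to 0.388 in the 8 pairs, and without centring the sign in the highest quartile would not hold.

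The share of reads in a column was summed over the genes called after centring, which without it would be other sets. Genes called lower took 47.5% to 53.9% of the reads of a paced tissue column (median 51.8%) and 64.1% to 67.6% of those of a paced cardiomyocyte column (median 65.1%). Genes called higher took 15.4% to 19.8% in whole tissue (median 17.7%) and 8.82% to 10.1% in cardiomyocytes (median 9.46%). Neither range overlapped between the kinds of sample, a separation that the choice of these genes brings with it. In each kind of sample the 10 genes of highest mean level over its paced columns were also taken. Those of whole tissue took 15.2% to 22.2% of the reads of a paced tissue column. Those of cardiomyocytes took 17.5% to 22.9% of the reads of a paced cardiomyocyte column, and these ranges overlapped.

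ENSOARG00000016476 was the gene with the largest rise in whole tissue among genes above the median level that had the same sign in every pair. In left appendages it stood at 10.44, 10.76, 10.01 and 8.52 log2 CPM in whole tissue of D24, D27, D16 and D19, against 7.67, 6.28, 7.25 and 7.17 in their cardiomyocytes. In right appendages it stood at 10.20, 9.62, 10.18 and 10.17 in whole tissue of the same sheep, against 6.88, 6.26, 7.57 and 7.76 in cardiomyocytes. The lowest tissue value lay above the highest cardiomyocyte value. The centred difference was 2.53 ± 0.28 (SE, n = 4 sheep), or 5.76-fold, with an adjusted p of 0.000478.

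ENSOARG00000005384 followed, at a centred difference of 2.16 ± 0.16 (SE, n = 4 sheep), or 4.47-fold, with an adjusted p of 9.97e-05. In left appendages it stood at 4.99, 5.90, 5.49 and 4.06 log2 CPM in whole tissue of D24, D27, D16 and D19, against 3.01, 2.65, 3.77 and 2.87 in cardiomyocytes. In right appendages it stood at 4.60, 5.56, 6.44 and 6.01 in whole tissue, against 1.84, 2.78, 2.87 and 3.14 in cardiomyocytes. Here too the groups did not overlap, and the left tissue of D19 was lowest in whole tissue for both genes.

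In control sheep both of these genes differed between the sides. The left minus right value of the centred difference of ENSOARG00000016476 was -0.06 ± 0.94 in paced sheep (SD, n = 4) and -2.11 ± 0.20 in control sheep (SD, n = 3). That of ENSOARG00000005384 was -0.93 ± 1.06 in paced sheep and -2.86 ± 0.49 in control sheep (SD, n = 4 and 3). All 3 control sheep lay below all 4 paced sheep for both genes; whether this side difference changed with pacing was not tested.

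ENSOARG00000009686 had the largest fall in whole tissue under the same rule. In left appendages it stood at 0.78, 0.42, 2.73 and 2.82 log2 CPM in whole tissue of D24, D27, D16 and D19, against 9.35, 8.70, 10.13 and 9.95 in cardiomyocytes. In right appendages it stood at 0.00, 0.64, 4.26 and 2.66 in whole tissue, against 9.80, 9.65, 11.20 and 11.12 in cardiomyocytes. These tissue values rest on few reads, 10 in the left appendage of D27 and 127 in the right appendage of D16, against 3151 to 17918 reads in the cardiomyocyte columns. The centred difference was -8.56 ± 0.29 (SE, n = 4 sheep), 376-fold lower in whole tissue, with an adjusted p of 7.24e-06.

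ENSOARG00000001783 was 213-fold lower in whole tissue, at -7.73 ± 0.26 (SE, n = 4 sheep) and an adjusted p of 7.12e-06. Its cardiomyocyte levels lay close together: 10.63, 10.97, 10.82 and 11.10 log2 CPM in left appendages of D24, D27, D16 and D19 and 11.36, 10.95, 11.02 and 11.09 in right ones. In whole tissue it stood at 3.55, 3.32, 3.93 and 4.92 in left appendages of the same sheep and at 2.10, 2.85, 3.95 and 4.31 in right ones. Every tissue value lay below every cardiomyocyte value, and the tissue columns were the more spread out. All 4 genes described here for whole tissue against cardiomyocytes kept their direction and stayed past the threshold in the 19 alternative settings tried.

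**Figure D2:**
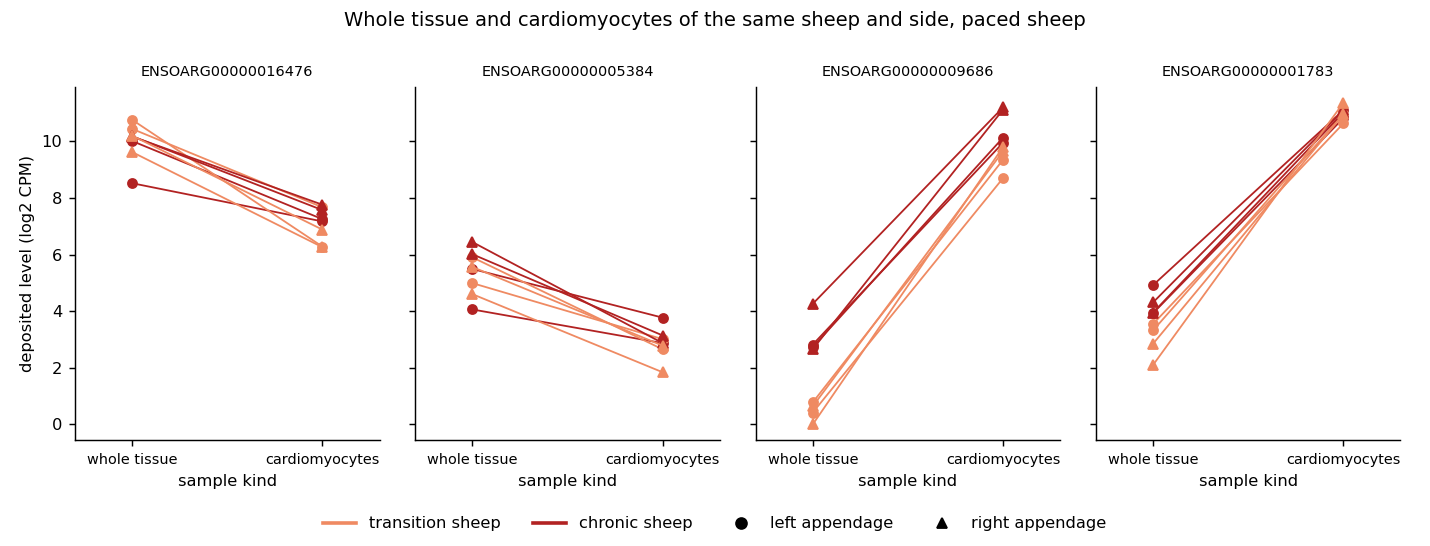
Deposited level (vertical axis, log2 CPM) of the 4 genes that lead the whole tissue against cardiomyocyte comparison, in whole tissue (left) and cardiomyocytes (right); each line joins the 2 columns of a sheep and side, coloured by state, with circles for left and triangles for right appendages. The lines of the first 2 genes all fall towards cardiomyocytes and those of the last 2 all climb, with ENSOARG00000009686 between 0.00 and 4.26 in whole tissue.

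Some genes appear in 1 table only. The 520 genes listed only for whole tissue took 0.0674% to 0.125% of the reads of a paced tissue column and had a median level of -0.254 log2 CPM. The 595 listed only for cardiomyocytes took 0.88% to 1.21% of the reads of a paced cardiomyocyte column, with a median level of 0.361, and 41 of them had a mean above 5 log2 CPM. The sources used here do not say what kept a gene out of the other table, so no value is given for it there.

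The gene of highest level among those listed only for cardiomyocytes, ENSOARG00000002058, averaged 11.78 ± 0.12 log2 CPM over the paced sheep (SD, n = 4), against 11.96 ± 0.11 in control sheep (SD, n = 3). ENSOARG00000000374 followed at 9.25 ± 0.08 in paced and 9.12 ± 0.14 in control sheep (SD, n = 4 and 3). Among genes listed only for whole tissue, ENSOARG00000016131 averaged 7.44 ± 0.20 in paced and 7.63 ± 0.22 in control sheep (SD, n = 4 and 3). ENSOARG00000018785 averaged 5.56 ± 0.25 in paced and 5.89 ± 0.06 in control sheep (SD, n = 4 and 3). Paced against control was not tested for these 4 genes.

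The pairs did not all look alike. The SD of the centred differences over genes was between 0.793 and 0.969 log2 units in the 8 pairs. The left pair of D27, at 0.969, had 1468 genes at least 1 log2 unit higher in whole tissue, against 707 to 1130 in the other 7 pairs, and 395 at least 2 units higher, against 97 to 176. The right pair of D19, at 0.961, had the most genes lower in whole tissue, 1346 by at least 1 unit and 319 by at least 2, and the widest interquartile range, 1.024, against 0.886 in the left pair of D27. The differences of the left pair of D27 correlated across genes with those of pairs of other sheep at r of 0.413 to 0.646 and with the right pair of D27 at 0.557, while the 2 sides of the other sheep correlated at 0.672 to 0.781. These are correlations across 12138 genes, which are not independent replicates. Without D27 limma called 2827 genes higher and 3075 lower.

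The sides of a sheep also differed, by a median over genes of 0.311 log2 units (SD between sides). Taken alone, left appendages gave 1997 genes higher and 2463 lower in whole tissue, and right appendages 2687 and 2983.

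The same split was looked for in the control sheep, which took no part in the calls. Of the genes called higher in paced whole tissue, 2805 (89.6%) were also higher on average in control whole tissue, with a median difference of 0.59 in paced and 0.44 in control sheep. Of the genes called lower, 2976 (91.0%) were lower on average in control whole tissue, with a median of -0.60 in paced and -0.38 in control sheep. Over all genes tested, 79.0% had the same sign in both sets of sheep. The paced medians are favoured by the choice of genes.

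The opposite choice takes the lists from the control sheep and the values from the paced ones. The 500 genes most shifted towards whole tissue in control sheep, the tissue-side list, had medians of 0.844 to 1.352 log2 units in the 8 paced pairs, and 417 of them were called higher in paced whole tissue, against 25.8% of all genes tested. The 500 genes most shifted towards cardiomyocytes, the cardiomyocyte-side list, had medians of -1.959 to -1.234 in the 8 paced pairs, and 419 were called lower, against 26.9% of all genes tested. In all 8 paced pairs 315 of the tissue-side genes were higher in whole tissue, against 2136 of the 12138 genes tested, and 364 of the cardiomyocyte-side genes were lower, against 2600 of the 12138. The median of all genes tested was within 0.007 of 0 in every pair.

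In the control pairs that chose them the medians were 1.072 to 1.735 for the tissue-side list and -2.208 to -2.057 for the cardiomyocyte-side list, values that the choice favours. The paced and control ranges of the cardiomyocyte-side list did not overlap, while those of the tissue-side list did. By summed level, the cardiomyocyte-side list took 5.52% to 8.26% of the reads of a paced cardiomyocyte column, against 7.89% to 11.4% in control ones. It took 2.21% to 3.37% in paced whole tissue, against 1.42% to 2.16% in control tissue. Nothing is read from paced against control here, since the control sheep chose the lists.

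**Figure D3:**
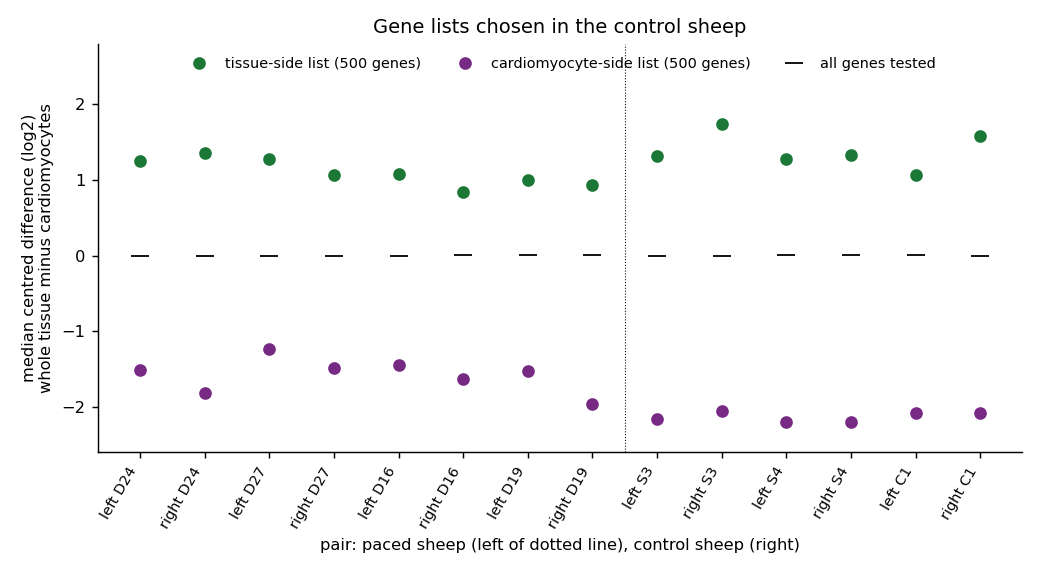
Median centred log2 difference of whole tissue minus cardiomyocytes (vertical axis) in each pair (horizontal axis) for 500 genes chosen as most shifted to whole tissue (green) and 500 most shifted to cardiomyocytes (purple) in control sheep; short black lines give the median of all genes tested. In the 8 paced pairs the green points lie between 0.844 and 1.352 and the purple points between -1.959 and -1.234.

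The gap between whole tissue and cardiomyocytes was set against the side of the heart. In the paced sheep, 183 genes had a higher centred difference in left than in right appendages (1.51% of those tested) and 49 a lower one (0.404%), by a limma moderated test on left minus right in the 4 sheep with adjusted p under 0.05. In this comparison, and in those of state and pacing that follow, a constant offset between the tables cancels. The offset that centring removed was not the same in every pair. Among the 183 genes the cardiomyocyte columns moved more than the tissue columns in 140 (76.5%), with a median left minus right of 0.10 in whole tissue and -0.94 in cardiomyocytes. Among the 49 the cardiomyocytes moved more in 35 (71.4%), with medians of -0.23 in whole tissue and 0.55 in cardiomyocytes. Over all genes tested the cardiomyocytes moved more in 57.7%. The side calls were made on the difference between the changes of tissue and cardiomyocytes, a choice that favours genes that moved unequally in them.

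ENSOARG00000004208 was lower in left than in right cardiomyocytes of every paced sheep. Its cardiomyocyte levels were 2.40, 2.39, 4.07 and 3.61 log2 CPM in left appendages of D24, D27, D16 and D19, against 3.26, 3.59, 5.88 and 4.90 in right ones. In whole tissue it stood at 4.09, 4.73, 5.42 and 4.96 in left appendages, against 4.24, 4.17, 4.38 and 4.44 in right ones. Whole tissue was higher on the left in D27, D16 and D19 and lower on the left in D24. The left minus right value of the centred difference was 1.81 ± 0.29 (SE, n = 4 sheep), with an adjusted p of 0.0166. The rule that named the genes of this comparison required that value to have the same sign in all 4 sheep. Of all genes tested, 25.4% met that.

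ENSOARG00000019098, far lower in whole tissue than in cardiomyocytes in every pair, was also lower in left than in right cardiomyocytes. Its cardiomyocyte levels were 6.03, 5.19, 7.08 and 7.13 log2 CPM in left appendages, against 6.31, 6.75, 8.48 and 8.71 in right ones of the same sheep. Its tissue levels were 0.95, 1.31, 1.88 and 2.37 in left appendages, against 0.99, -0.03, 1.70 and 1.94 in right ones, on as few as 8 reads in the right appendage of D27. The left minus right value was 1.71 ± 0.34 (SE, n = 4 sheep), with an adjusted p of 0.0364.

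ENSOARG00000012705 went the other way, with cardiomyocyte levels of 5.50, 5.37, 4.83 and 6.30 log2 CPM in left appendages of D24, D27, D16 and D19, against 2.54, 3.09, 3.91 and 3.59 in right ones. The left and right cardiomyocytes did not overlap. In whole tissue the sides overlapped, at 6.47, 5.02, 6.08 and 6.95 in left appendages, against 5.59, 5.65, 6.66 and 5.22 in right ones. The left minus right value was -1.84 ± 0.26 (SE, n = 4 sheep), with an adjusted p of 0.0162.

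ENSOARG00000010736 stood at 3.71, 4.71, 4.69 and 5.37 log2 CPM in left cardiomyocytes, against 2.44, 4.03, 3.47 and 2.78 in right ones of the same sheep, so it was higher on the left in all 4. Its tissue levels were 2.97, 3.65, 5.12 and 5.98 in left appendages, against 2.90, 5.97, 4.90 and 4.90 in right ones, with only D27 lower on the left. The left minus right value was -1.65 ± 0.29 (SE, n = 4 sheep), with an adjusted p of 0.0228.

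The control sheep were not used for these side calls. Their left minus right values were -0.37 ± 0.56 for ENSOARG00000004208, 1.29 ± 0.29 for ENSOARG00000019098, -1.73 ± 0.44 for ENSOARG00000012705 and -0.63 ± 0.95 for ENSOARG00000010736 (SD, n = 3). ENSOARG00000019098 and ENSOARG00000012705 had the sign of the paced sheep in all 3 controls. Whether paced and control sheep differed in this was not tested.

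**Figure D4:**
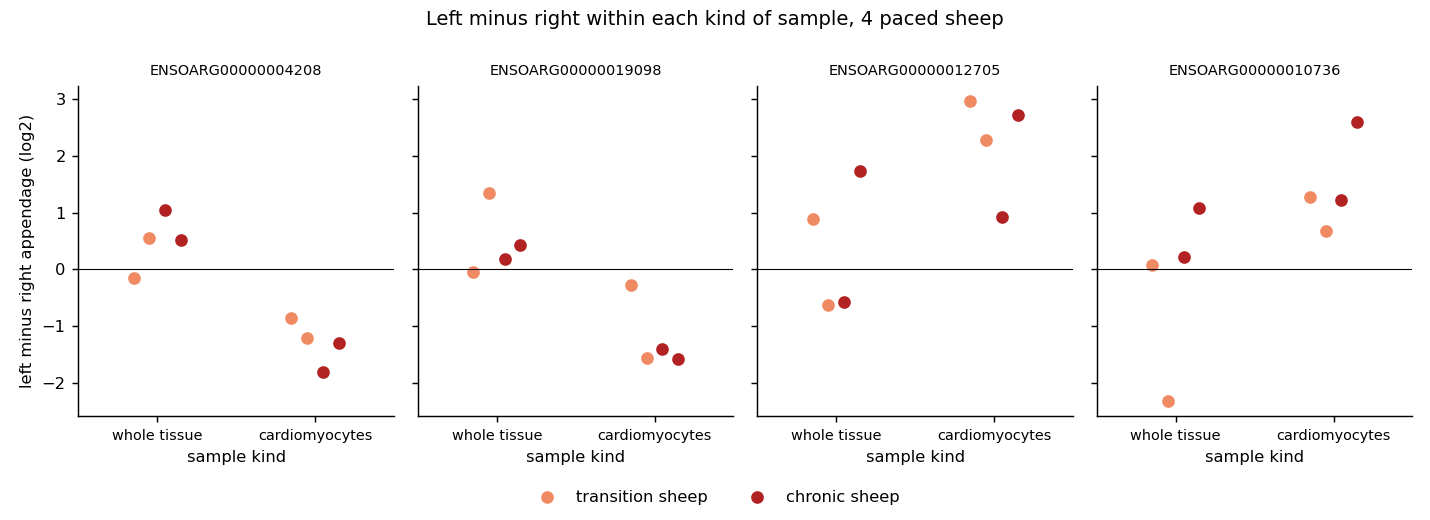
Left minus right appendage (vertical axis, log2) of 4 genes within whole tissue (left of each panel) and within cardiomyocytes (right of each panel); each point is 1 of 4 paced sheep, coloured by state. In cardiomyocytes the first 2 genes lie below 0 and the last 2 above 0 in every sheep, while tissue points lie on both sides of 0. The rule that named these genes required the left minus right value of the centred difference to have the same sign in all 4 sheep.

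The side calls depended on the error model and on single sheep. With limma's mean-variance trend left out there were 0 calls, with 1863 genes at an unadjusted p under 0.05, and with the sheep left unpaired there were also 0, with 744 at that unadjusted p, against 2234 in the test as given. The numbers higher and lower were 5 and 2 without D16, 15 and 4 without D19, 58 and 12 without D27 and 375 and 253 without D24. Of the 4 genes described, ENSOARG00000012705 lost its call in 3 of 14 alternatives and the other three in 5 each, and all kept their direction.

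Chronic and transition sheep were compared next. In the 2 chronic sheep, 10 genes had a higher centred difference of whole tissue minus cardiomyocytes than in the 2 transition sheep (0.0824% of those tested) and 107 a lower one (0.882%), by limma with adjusted p under 0.05. For the 107 genes the cardiomyocyte columns moved more in 104 (97.2%), against 65.3% of all genes tested. Their median chronic minus transition value was 0.07 in whole tissue and 1.35 in cardiomyocytes. The calls were made on the difference between these changes, a choice that favours genes that moved unequally in tissue and cardiomyocytes. The 10 genes had a median of 1.25 in whole tissue and -0.26 in cardiomyocytes, and the tissue moved more in 7 of them.

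ENSOARG00000009668 was near one level in whole tissue and higher in the cardiomyocytes of chronic sheep. Its cardiomyocyte levels were 4.70 and 5.54 log2 CPM in left and right appendages of D16 and 5.20 and 5.89 in those of D19, against 3.72 and 3.65 in D24 and 3.40 and 3.71 in D27. In whole tissue it lay at 3.74, 3.98, 4.09 and 3.65 in the same order in chronic sheep, against 3.70, 3.74, 4.0 and 3.82 in transition sheep. The cardiomyocytes of the states did not overlap and the tissues did. The rule that named the genes of this comparison required the sheep of the states not to overlap in the centred difference. Of all genes tested, 43.0% met that. The chronic minus transition value was -1.68 ± 0.21 (SE, n = 2 sheep each), with an adjusted p of 0.0212.

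ENSOARG00000008351 had cardiomyocyte levels of 4.04 and 5.48 log2 CPM in left and right appendages of D16 and 4.78 and 5.31 in those of D19, against 2.45 and 4.24 in D24 and 3.18 and 4.33 in D27. In each side taken alone the chronic cardiomyocytes lay above the transition ones. Its tissue levels were 3.82, 5.30, 3.69 and 4.58 in chronic sheep, against 4.09, 5.05, 4.63 and 5.08 in transition sheep. The chronic minus transition value was -1.73 ± 0.24 (SE, n = 2 sheep each), with an adjusted p of 0.0236.

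ENSOARG00000010939 moved in whole tissue. Its tissue levels were 5.71 and 5.86 log2 CPM in left and right appendages of D16 and 5.49 and 4.06 in those of D19, against 3.76 and 2.84 in D24 and 3.95 and 3.27 in D27. Its cardiomyocyte levels were 6.59, 6.41, 6.63 and 6.57 in chronic sheep, against 6.48, 7.54, 6.78 and 6.67 in transition sheep. Only the tissue values of the states did not overlap, in a gene named under the same rule. The chronic minus transition value was 2.13 ± 0.34 (SE, n = 2 sheep each), with an adjusted p of 0.0371.

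ENSOARG00000009686, the gene 376-fold lower in whole tissue, had a chronic minus transition value of 1.42 ± 0.24 (SE, n = 2 sheep each), with an adjusted p of 0.0473. It was higher in chronic sheep in both kinds of sample, at a mean of 3.12 ± 0.54 log2 CPM in tissue of chronic sheep against 0.46 ± 0.10 in transition sheep, and of 10.60 ± 0.09 in cardiomyocytes of chronic sheep against 9.37 ± 0.28 in transition sheep (SD, n = 2 sheep each). The tissue change was the wider one, on 48 to 127 reads per column in chronic sheep and 10 to 23 in transition sheep. With a pseudocount of 10 CPM the value became -0.475, so its direction rests on these low tissue values.

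The chronic against transition calls changed with the error model, the side and single sheep. There were 0 calls in either direction without the mean-variance trend (1318 genes at an unadjusted p under 0.05), without the pairing of tissue and cardiomyocytes by sheep (704) and in left appendages alone (812), against 1448 at that unadjusted p in the limma test as given. Right appendages alone gave 3 higher and 14 lower. Without D16 there were 1 and 0 (1079 at the unadjusted p), without D19 2 and 1, without D27 80 and 165 and without D24 179 and 489, each leaving a state with 1 sheep. With both sides entered as separate values and the sheep as a random effect there were 22 higher and 185 lower. ENSOARG00000009686 lost its call in 10 of 16 alternatives, its change of sign included, ENSOARG00000010939 in 7, and ENSOARG00000008351 and ENSOARG00000009668 in 6 each.

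The gap was last set against that of control sheep. In paced sheep 430 genes had a higher centred difference of whole tissue minus cardiomyocytes than in control sheep (3.54% of those tested) and 708 a lower one (5.83%), by limma with adjusted p under 0.05. In 300 of the 430 genes (69.8%) tissue and cardiomyocytes moved in opposite directions, with a median paced minus control value of 0.52 in whole tissue and -0.35 in cardiomyocytes. In 488 of the 708 (68.9%) they did so as well, with medians of -0.24 in whole tissue and 0.21 in cardiomyocytes. Over all genes tested 34.5% moved in opposite directions. A call on a difference of changes favours genes whose changes are opposite. Without centring there were 447 higher and 445 lower, a more even split. The offset that centring removed was 0.338 to 0.388 in the paced pairs and 0.294 to 0.337 in the control pairs.

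ENSOARG00000001574 was lower in the cardiomyocytes of all paced sheep. Its cardiomyocyte levels were 6.59, 7.55, 7.30 and 7.17 log2 CPM in left appendages of D24, D27, D16 and D19, against 9.91, 9.94 and 9.09 in those of S3, S4 and C1. They were 8.01, 8.15, 8.03 and 7.61 in right appendages of the paced sheep, against 10.14, 9.81 and 9.08 in those of the controls. Paced and control cardiomyocytes did not overlap on either side. In whole tissue the mean was 2.75 ± 0.78 in paced sheep and 1.93 ± 0.12 in control sheep (SD, n = 4 and 3). The paced minus control value was 2.89 ± 0.35 (SE, n = 4 and 3), with an adjusted p of 0.0125.

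ENSOARG00000010939, also called between the states, had cardiomyocyte levels of 6.48, 6.78, 6.59 and 6.63 log2 CPM in left appendages of D24, D27, D16 and D19, against 9.84, 8.81 and 8.44 in those of S3, S4 and C1. In right appendages they were 7.54, 6.67, 6.41 and 6.57, against 9.59, 8.32 and 8.12 in controls. Its tissue mean was 4.37 ± 1.14 in paced sheep and 2.58 ± 2.24 in control sheep (SD, n = 4 and 3), with C1 far below the others at -0.64 on the left, from 4 reads, and 0.68 on the right. The paced minus control value was 3.89 ± 0.85 (SE, n = 4 and 3), with an adjusted p of 0.0283. Without C1 it was 2.895, with an adjusted p of 0.0604.

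ENSOARG00000010191 had sheep means of the centred difference of -0.64, -1.81, -2.14 and -1.74 in D24, D27, D16 and D19, against -0.21, -0.03 and 0.01 in S3, S4 and C1. Its tissue mean was 4.94 ± 1.12 log2 CPM in paced sheep and 6.53 ± 0.08 in control sheep, and its cardiomyocyte mean 6.17 ± 1.17 in paced sheep and 6.29 ± 0.19 in control sheep (SD, n = 4 and 3). The paced sheep varied more than the controls in both kinds of sample. The paced minus control value was -1.51 ± 0.30 (SE, n = 4 and 3), with an adjusted p of 0.0237.

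ENSOARG00000011636 had sheep means of -1.98, -2.46, -3.23 and -2.83 in D24, D27, D16 and D19, against -1.78, -1.11 and -1.82 in S3, S4 and C1. The groups, which the naming rule required not to overlap, were separated by D24 and C1 only narrowly. Its tissue mean was 4.80 ± 1.04 log2 CPM in paced sheep and 6.34 ± 1.07 in control sheep, and its cardiomyocyte mean 7.07 ± 0.56 in paced sheep and 7.59 ± 0.74 in control sheep (SD, n = 4 and 3). The paced minus control value was -1.06 ± 0.28 (SE, n = 4 and 3), with an adjusted p of 0.049, and the call was lost in 13 of 19 alternatives.

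**Figure D5:**
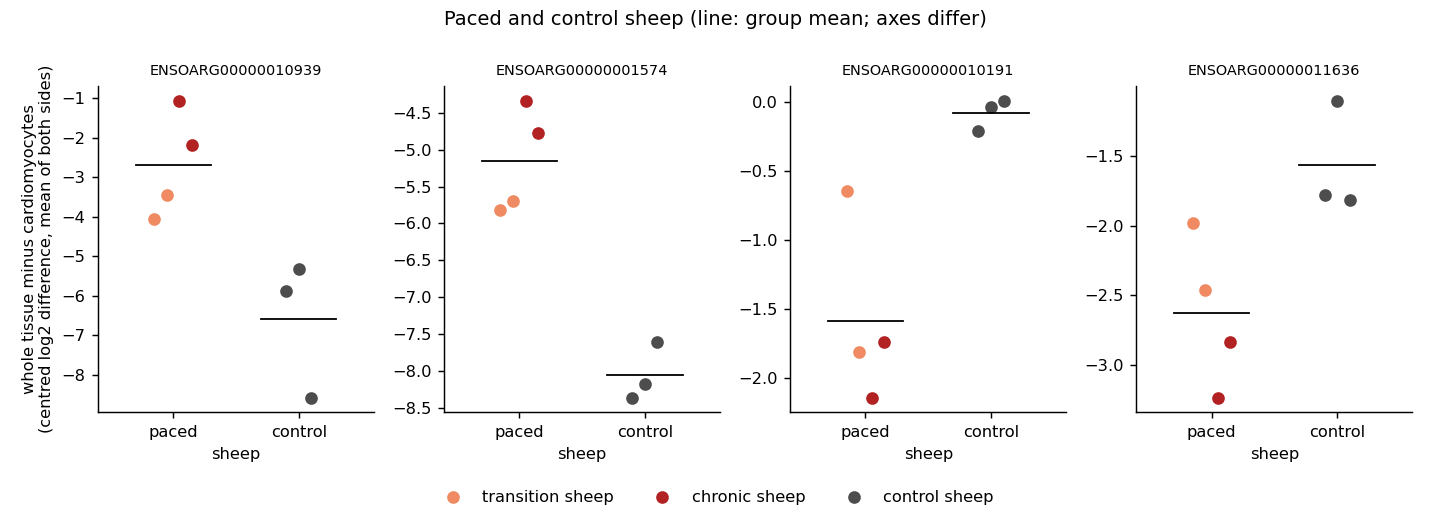
Sheep means over both sides of the centred log2 difference of whole tissue minus cardiomyocytes (vertical axis, each panel with its own range) in paced sheep (left, coloured by state) and control sheep (right, grey) for 4 genes; each point is a sheep and each line a group mean. Paced sheep lie above control sheep in the first 2 genes and below them in the last 2, by the narrowest gap in ENSOARG00000011636. The rule that named these genes required the groups not to overlap.

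The pacing calls too depended on the error model and on single sheep. Limma called 0 genes either way without the mean-variance trend (3201 at an unadjusted p under 0.05, against 3335 in the test as given) and 10 higher and 0 lower without the pairing of tissue and cardiomyocytes by sheep (1930 at that unadjusted p). Left appendages alone gave 275 higher and 306 lower, and right appendages alone 4 and 0 (2479 at the unadjusted p). The numbers higher and lower were 16 and 0 without D16 (2833 at the unadjusted p), 21 and 2 without S3 and 52 and 4 without S4. They were 185 and 308 without C1, 197 and 251 without D19, 260 and 368 without D27 and 412 and 504 without D24. ENSOARG00000001574 lost its call in 3 of 19 alternatives, ENSOARG00000010939 and ENSOARG00000010191 in 8 each, and none of the 4 genes changed direction.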

How the data were processed

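Libraries were prepared with an Illumina NEBNext Ultra kit, per the labels' protocols. Per the submitters' processing notes, RSEM, limma, cutadapt and bcl2fastq were used, with no version or role stated. Aligner, genome build, annotation and strand setting: not given in the sources used here. Genes that overlap or have near-identical copies cannot be told apart. The authors deposited log2 values, 1 column per sheep and region, with technical replicates merged. Of the values of either table, 100.0% gave whole reads within 0.05 reads, as the log2 of CPM with 0.5 added to the reads of each gene. Columns of the same kind of sample were compared with each other, over both sides and with control sheep included. The lowest chi-square per degree of freedom was 12.8 in whole tissue and 11.9 in cardiomyocytes, so no column was a copy of another. The columns of a group are separate sheep, each merging 2 samples.

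From these values whole tissue minus cardiomyocytes was computed per sheep and side for genes in both tables, and centred on the pair's median. Sides were averaged per sheep. Genes under a mean of 0 log2 CPM over the paced columns were left out. The statistics came from limma 3.58.1 (R 4.3.3), run with its mean-variance trend and Benjamini-Hochberg adjustment over 12138 genes at 0.05, two-sided, after a trial on simulated data. SEs are limma's moderated ones. Tissue and cardiomyocytes were paired through the labelled sheep: deviations of a sheep's tissue from the group mean correlated across genes with those of its own cardiomyocytes at 0.438 to 0.654, and each paced sheep matched itself best. The alternatives covered centring, joint quantile normalisation, pseudocounts, filters, the trend, pairing, sides, voom on recovered reads, and leaving out each sheep. Named genes were, per comparison and direction, the 2 with the largest difference among called genes above the median level with the same sign in every pair (or sheep), or with groups that did not overlap. For genes in 1 table, they were the 2 of highest mean level. Planned marker lists are lists of symbols and could not be used. The pairs, lists and rules were chosen with earlier results of these data known. Other regions and sheep were not analysed here.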

Additional observations from a re-analysis of the deposited data

Results flagged for a closer look

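None of the 21 groups of 4 sheep tested held a sheep that stood apart by Dixon's ratio, where chance would mark about 1 group in 20. The values below were picked out because the difference between whole tissue and cardiomyocytes itself differed between sets of samples in a limma test of that difference.

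Between left and right appendages the counts were 183 genes higher and 49 lower. The values were 1.81 for ENSOARG00000004208, 1.71 for ENSOARG00000019098, -1.84 for ENSOARG00000012705 and -1.65 for ENSOARG00000010736. Between chronic and transition sheep the counts were 10 higher and 107 lower, with 2.13 for ENSOARG00000010939, 1.42 for ENSOARG00000009686, -1.73 for ENSOARG00000008351 and -1.68 for ENSOARG00000009668. Between paced and control sheep they were 430 higher and 708 lower, with 3.89 for ENSOARG00000010939, 2.89 for ENSOARG00000001574, -1.51 for ENSOARG00000010191 and -1.06 for ENSOARG00000011636.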

How the results depend on the processing

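For whole tissue against cardiomyocytes, voom on recovered reads gave 3444 genes higher and 3545 lower; without centring there were 6515 higher and 1484 lower, against a difference of 1 log2 unit 39 and 194, in left appendages alone 1997 higher, and leaving out each sheep 2286 to 2827 higher and 2693 to 3075 lower. With no replicate block, that is without pairing, there were 2182 and 2504 there, 0 and 0 for left against right, 0 and 0 for chronic against transition, and 10 and 0 for paced against control. Without the mean-variance trend the last 3 comparisons gave 0 and 0 each. Leaving out each sheep gave 5 to 375 higher and 2 to 253 lower for left against right, 1 to 179 and 0 to 489 for chronic against transition, and 16 to 412 and 0 to 504 for paced against control; a lone sheep in a state is assumed to vary like the others. For left against right a pseudocount of 1 gave 82 lower. For chronic against transition, centring on genes above the median level gave 5 higher, left appendages 0 and 0, right appendages 3 and 14, and sides as separate values 22 and 185; ENSOARG00000009686 changed sign to -0.475 at a pseudocount of 10. For paced against control, left appendages gave 275 and 306, right appendages 4 and 0, and no centring 445 lower. With lists of 200 in place of 500 genes, the medians of the paced pairs averaged 1.472 and -2.601, against 1.101 and -1.579. The causes were not tested. Few sheep and, for genes such as ENSOARG00000009686, few tissue reads limit precision.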
